A study of Mus musculus with 28 samples.

Results

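Oxidative stress response genes code for the enzymes and metal-binding proteins that cells use against reactive oxygen, electrophiles and free metal. The group described here is 10 mouse genes, chosen by symbol and not by their values: Hmox1, Nqo1, Gclm, Gclc, Txnrd1, Srxn1, Sod2, Slc7a11, Mt1 and Mt2. All 10 are among the 53564 gene symbols of the deposited expression table, and 9 of them are among the 21935 genes that reached 1 TPM in at least 2 libraries and were tested. Slc7a11 did not reach that level in any library.

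The study followed mouse C57BL6 embryonic stem cells (ESCs) of different telomere length on their way to germ cells. LT (long telomere) cells came from wild-type ESCs, ST (short telomere) cells from ESCs labelled Terc-KO G4, which lack Terc, the RNA template of telomerase, and RT (rescued telomere) cells from Terc-rescued ESCs. The labels do not say how Terc was restored or how many ESC clones stand for each line. In each line, ESCs were first turned into epiblast-like cells over 2 days with bFGF and Activin A, and day-1 embryoid bodies (1dEB) were taken after 1 day of germ cell induction with BMP4, SCF, EGF and LIF. Day-1 meiocyte-like cells (1dMeioLC) were the induced germ cells at the end of that protocol, aggregated for 1 day with gonadal somatic cells of female Actin-GFP embryos at E12.5 in serum medium with 3 µM retinoic acid, vitamin C and a ROCK inhibitor, then sorted as GFP-negative cells. E10.5PGC were primordial germ cells sorted from E10.5 embryos by CD61 and SSEA1, and PGC-1dMeioLC were such cells after the same gonadal co-culture. Each of the 8 groups has 2 libraries, and nothing says whether the 2 came from separate cultures or embryos, so the p-values measure only the spread between these libraries, which may be technical.

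Many of these genes answer to NRF2 (Nfe2l2). KEAP1 holds NRF2 at a low level until oxidants or electrophiles modify it. NRF2 then pairs with small MAF proteins at antioxidant response elements, sites that the repressor BACH1 can also occupy. Metallothioneins answer mainly to the zinc-sensing factor MTF1 through metal response elements, and they bind zinc, copper and cadmium. Glutathione, whose synthesis is limited by glutamate-cysteine ligase, is the main soluble thiol that these enzymes draw on.

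The promoters of 4 members are shown, chosen after the values below were seen. Mt1 and Mt2 are neighbours that parted between the lines, and Gclm and Txnrd1 moved in opposite directions in ST 1dMeioLC. No link between a promoter and a level was tested. Each sequence is the 250 bases upstream of a RefSeq start (GRCm38.p6), read 5′ to 3′ on the gene's strand. Capitals mark matches on either strand to 3 cores: the antioxidant response core TGACNNNGC and the metal response cores TGCACNC and TGCGCNC.
Mt2, chr8:94172368-94172617 (+): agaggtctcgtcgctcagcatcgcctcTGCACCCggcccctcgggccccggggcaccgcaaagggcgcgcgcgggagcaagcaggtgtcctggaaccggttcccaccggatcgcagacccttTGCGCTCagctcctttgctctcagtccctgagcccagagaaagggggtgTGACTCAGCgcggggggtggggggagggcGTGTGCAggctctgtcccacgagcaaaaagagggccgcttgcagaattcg
Mt1, chr8:94178839-94179088 (+): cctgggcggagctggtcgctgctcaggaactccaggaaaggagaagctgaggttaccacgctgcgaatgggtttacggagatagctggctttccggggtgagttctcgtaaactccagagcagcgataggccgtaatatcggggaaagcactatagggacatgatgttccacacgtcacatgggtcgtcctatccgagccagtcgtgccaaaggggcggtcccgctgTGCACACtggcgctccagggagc
Gclm, chr3:122245307-122245556 (+): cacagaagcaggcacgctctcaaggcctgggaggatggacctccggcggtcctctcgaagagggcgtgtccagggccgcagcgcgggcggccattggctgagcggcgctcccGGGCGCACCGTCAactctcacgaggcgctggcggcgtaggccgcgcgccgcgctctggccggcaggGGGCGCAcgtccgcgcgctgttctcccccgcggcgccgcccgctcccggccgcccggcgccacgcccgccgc
Txnrd1, chr10:82858956-82859205 (+): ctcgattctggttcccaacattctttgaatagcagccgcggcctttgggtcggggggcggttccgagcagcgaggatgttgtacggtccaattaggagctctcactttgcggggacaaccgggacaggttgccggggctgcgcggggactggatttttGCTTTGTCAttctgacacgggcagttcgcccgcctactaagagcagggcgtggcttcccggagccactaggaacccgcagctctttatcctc

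The Mt2 window held 1 antioxidant core, TGACTCAGC, and 3 metal cores. The Mt1 window held a single metal core, TGCACAC, that ends 17 bases before the RefSeq start. Bases outside these windows were not searched, so the counts do not show how many metal cores either gene has. The Mt2 window, for example, ends at 94172617, before the GENCODE start of Mt2 at 94172664. In Gclm an antioxidant core and a metal core overlap within the first run of capitals, and a further metal core follows. Txnrd1 held 1 antioxidant core in this window and none of the 3 cores in the windows of its other 2 RefSeq starts. Of the 10 members, 8 had an entry, with 10 windows in all. An antioxidant core was found in 3 members (Gclm, Txnrd1, Mt2) and a metal core in 4 (Gclm, Srxn1, Mt1, Mt2). Among 32851 promoter windows of the same length, 10.2% held the antioxidant core, 10.4% (3417 windows) the first metal core and 4109 windows the second, so single matches are common, and a match is not evidence of a working site. Hmox1 and Gclc had no entry.

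In the GENCODE M21 annotation (mm10), Mt2 (chromosome 8, 94172664 to 94173568) and Mt1 (94179082 to 94180327) lie on the same strand, 5514 bases apart. Their transcripts are alike, and no label or header says how reads that match both were divided, so their split is uncertain. Gclm overlaps the pseudogene Gm6061 on its own strand (up to 31.4 TPM), and Mt2 overlaps the antisense gene Gm45774 (up to 110 TPM), so values of these 2 members may hold reads of the other gene.

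Levels are TPM, a transcript abundance corrected for transcript length. The share of TPM that came from nuclear protein-coding genes was 27.1% to 29.1% in RT-1dEB, 38.6% to 38.8% in LT-1dEB, 44.0% to 44.4% in ST-1dEB and 54.2% to 61.2% elsewhere. Levels are therefore given as scaled TPM, in which those genes add up to 1000000 in every library. Raw TPM is set beside them where it changes a result. Differences are log2 fold changes of scaled TPM + 1, which understate the change of low genes, and "called" means a limma adjusted p under 0.05 over all tested genes. Terc was at 0 in the 4 ST libraries and between 0.699 and 5.39 raw TPM in the LT and RT libraries, and it was also at 0 in both PGC-1dMeioLC libraries. The 8 PGC markers summed to 5671 to 5689 scaled TPM in E10.5PGC, most of it Dppa3 (mean 4928), and to 181 to 1024 elsewhere, while Pou5f1 and Tfap2c of that list had their highest means in RT-1dEB (364 and 50.0, against 14.1 and 37.6 in E10.5PGC). The late germ cell markers were 877 to 2719 summed scaled TPM in the 1dMeioLC groups against 28.4 to 67.0 in 1dEB. Hemoglobin and gonadal somatic markers were also present in every 1dMeioLC group. Hemoglobin was not limited to these groups: the erythroid markers summed to 1276.5 to 1289 in E10.5PGC, above the 756 to 786 of PGC-1dMeioLC. In bulk RNA, fewer cells of a type and less RNA per cell cannot be told apart.

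**Figure D1:**
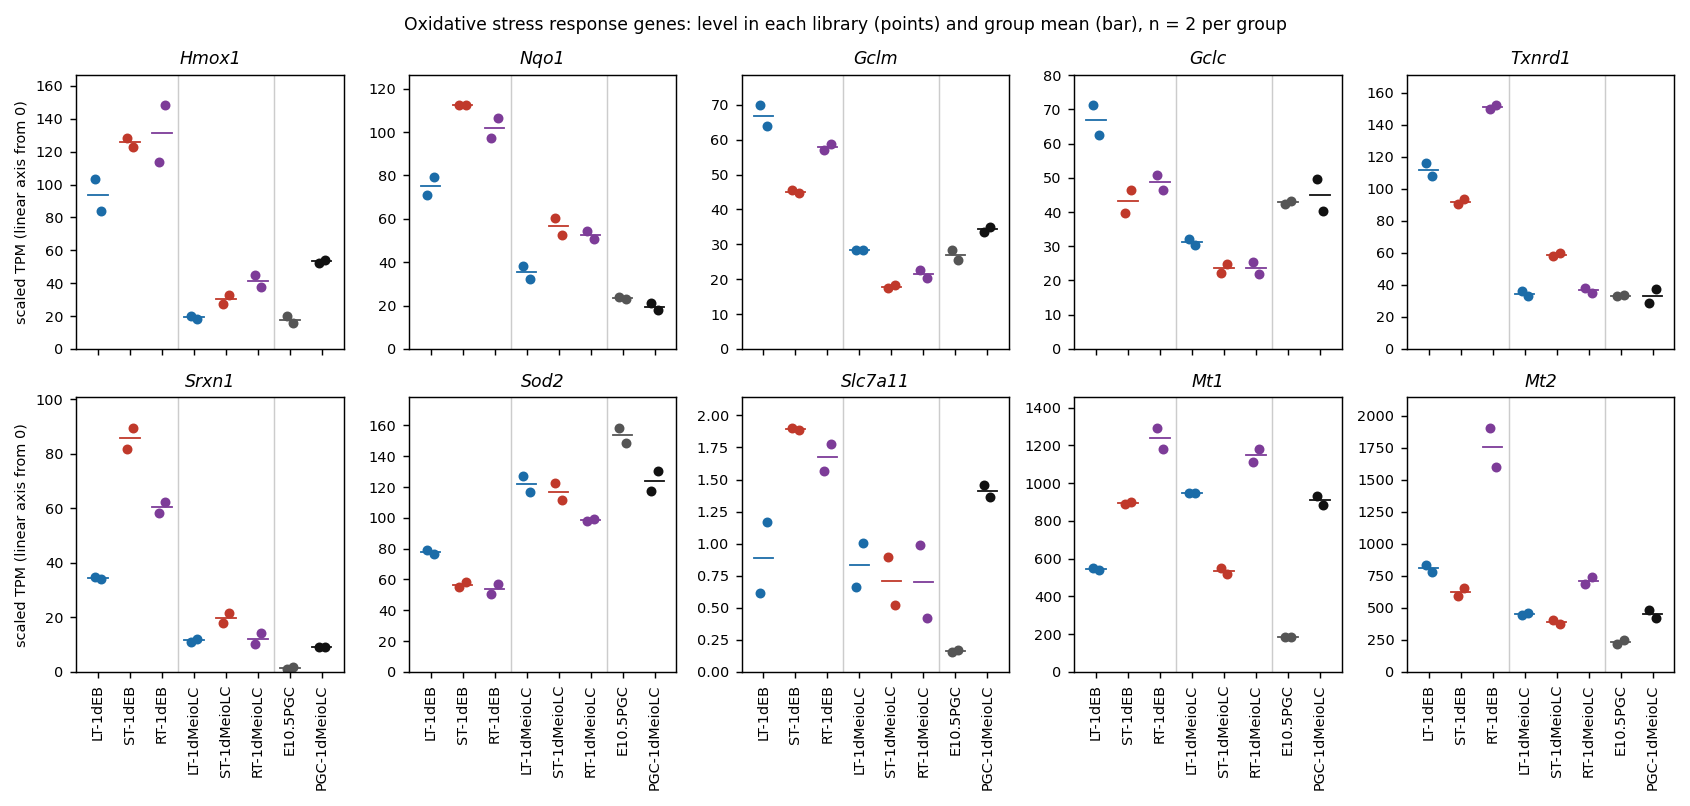
Level of each oxidative stress response gene in scaled TPM (linear axis from 0) in the 8 groups. Points are the 2 libraries of a group and bars their mean. Hmox1, Nqo1, Gclm, Txnrd1 and Srxn1 were highest in 1dEB groups, and Sod2 was lowest there.

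The members spanned very different ranges. Srxn1, the enzyme that repairs overoxidised peroxiredoxins, ran from 1.16 scaled TPM in an E10.5PGC library to 89.4 in an ST-1dEB library, a 55.7-fold ratio of the highest to the lowest group mean. Its range of group means was larger than that of 96.4% of the 10490 nuclear protein-coding genes with at least 10 scaled TPM in some group. Gclc, the catalytic subunit of glutamate-cysteine ligase, and Sod2, the mitochondrial superoxide dismutase, were the steadiest tested members, with ratios of 2.85 and 2.86. Metallothioneins were the most abundant members: Mt1 lay between 182 and 1292 scaled TPM and Mt2 between 218 and 1903. Hmox1, the heme oxygenase, ran from 15.8 to 148, Nqo1, a quinone reductase, from 18.0 to 112, Gclm, the modifier subunit of glutamate-cysteine ligase, from 17.4 to 70.0, and Txnrd1, the cytosolic thioredoxin reductase, from 28.6 to 152. Slc7a11, the cystine importer that feeds glutathione synthesis, stayed between 0.0957 and 0.844 raw TPM in the 16 libraries.

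Group order also differed from gene to gene. E10.5PGC was the lowest group for Hmox1, Srxn1, Slc7a11, Mt1 and Mt2, PGC-1dMeioLC for Nqo1 and Txnrd1, and ST-1dMeioLC for Gclm and Gclc. Top of the order was ST-1dEB for Nqo1, Srxn1 and Slc7a11, RT-1dEB for Hmox1, Txnrd1, Mt1 and Mt2, LT-1dEB for Gclm and Gclc, and E10.5PGC for Sod2. Neighbours in these orders often overlapped: the libraries of ST-1dEB and RT-1dEB overlapped for Hmox1, and for Txnrd1 each of the 3 lowest groups overlapped the next.

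The comparison of ST with LT 1dEB asks how the short telomere line differed at the first day of induction. Among the NRF2-linked members, Srxn1 and Nqo1 were higher in ST and the 2 glutamate-cysteine ligase genes were lower. The metallothioneins also parted, with Mt1 higher and Mt2 lower. In all, 3 of the 9 tested members were called higher and 4 lower, against 22% and 18.7% of all tested genes. On raw TPM the members' counts were 4 and 3, against 26.7% and 11.6%. The members' median log2 difference was -0.28, beside 0 over all genes.

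Srxn1 was at 34.9 and 34.1 scaled TPM in LT-1dEB and at 81.7 and 89.4 in ST-1dEB. The ST libraries were both far above the LT libraries (log2 difference 1.29 ± 0.16 SE, limma adjusted p = 1.1e-04). Nqo1 was at 71.2 and 79.2 in LT and at 112 in both ST libraries (0.58 ± 0.11, limma adjusted p = 0.0015). Gclm went the other way, from 70.0 and 63.9 in LT to 45.5 and 44.7 in ST (-0.56 ± 0.08, limma adjusted p = 1.8e-04). Gclc followed it, from 71.3 and 62.6 to 39.9 and 46.5 (-0.62 ± 0.12, limma adjusted p = 0.0022). Fitting only the groups compared ended the calls of Gclc (limma adjusted p = 0.057) and Mt2 (0.060). Within a library, where scaling cancels, the Srxn1 level was 0.499 and 0.533 times that of Gclm in LT-1dEB and 1.80 and 2.00 times in ST-1dEB. This ratio was chosen after the values were seen.

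Hmox1 was at 103 and 83.7 in LT-1dEB and at 129 and 123 in ST-1dEB, and it was not called (0.43 ± 0.16, limma adjusted p = 0.056). It was called on raw TPM (limma adjusted p = 0.015) and without LT-1dEB replicate 1 (limma adjusted p = 0.042). Txnrd1 was at 116 and 108 in LT and at 90.4 and 93.7 in ST, also not called (-0.28, limma adjusted p = 0.054). Sod2 was lower in ST, at 55.1 and 58.2 against 78.8 and 76.4 (-0.45 ± 0.08, limma adjusted p = 0.0012), and the difference on raw TPM was -0.25. That of Gclm on raw TPM was -0.36.

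Mt1 was at 547 and 540 scaled TPM in LT-1dEB and at 887 and 899 in ST-1dEB (0.72 ± 0.05, limma adjusted p = 1.6e-06). Mt2 was at 834 and 783 in LT and at 589 and 654 in ST (-0.38 ± 0.10, limma adjusted p = 0.012). So the pair changed places: Mt1 was 0.656 and 0.690 times Mt2 in the LT libraries and 1.51 and 1.38 times in the ST libraries. The Mt2 call was lost on raw TPM (limma adjusted p = 0.14), without LT-1dEB replicate 1 (0.077) and without ST-1dEB replicate 1 (0.090). Mt3, a metallothionein of the same cluster, was at 34.6 and 41.4 in LT and at 7.45 and 7.33 in ST (-2.21 ± 0.26, limma adjusted p = 6.7e-05).

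Of 80 tested genes on 10 wider lists around the members, 34 were called higher in ST 1dEB and 19 lower (45 and 12 on raw TPM), with a median of 0.21. Further NRF2 targets had 5 of 8 higher and 1 lower, with a median of 1.12. They included Ephx1, an epoxide hydrolase (2.46), Akr1b8, an aldo-keto reductase (2.12), and Ugdh (2.12). Of 14 genes of glutathione use, 9 were higher, led by Mgst1 (2.62), Gpx8 (2.32) and Glrx (2.28), and 4 were lower (median 0.30). Regulators of NRF2 and BACH1 had 5 of 10 higher and 1 lower (median 0.21), among them Keap1 (0.64) and Sqstm1, an autophagy receptor that sequesters KEAP1 (0.63). In heme and iron handling 6 of 9 were higher, among them the heme transporter Slc48a1 (1.94), and 1 was lower, the transferrin receptor Tfrc (-0.80), with a median of 0.34. Thioredoxins and peroxiredoxins had 3 of 11 higher, led by Prdx5 (1.34), and 3 lower (median 0.18). NADPH supply had 2 of 6 higher, Me1 (1.46) and Idh1 (0.35), and none lower (median 0.14). In superoxide and peroxide removal Sod3 was higher (3.85), and Sod1 (-0.62) and Cat (-0.22) were lower, of 4 (median -0.01). Metal response genes had none of 5 higher and 3 lower (median -0.40). The p53-linked antioxidant genes had 2 of 7 higher, among them Sesn2 (0.89), and 2 lower, Gls2 (-1.07) and Tigar (-0.62), with a median of -0.01. ATF4 targets had 1 of 6 higher, Ddit3 (0.82), and 2 lower, Asns (-1.10) and Psat1 (-0.84), with a median of 0.10. All genes had a median of 0 here, and these are limma calls at an adjusted p under 0.05. The 7 fibroblast and stroma markers summed to 30.1 to 31.8 scaled TPM in LT-1dEB and to 581 to 603 in ST-1dEB, with none at 0, and their part in these differences was not tested.

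**Figure D2:**
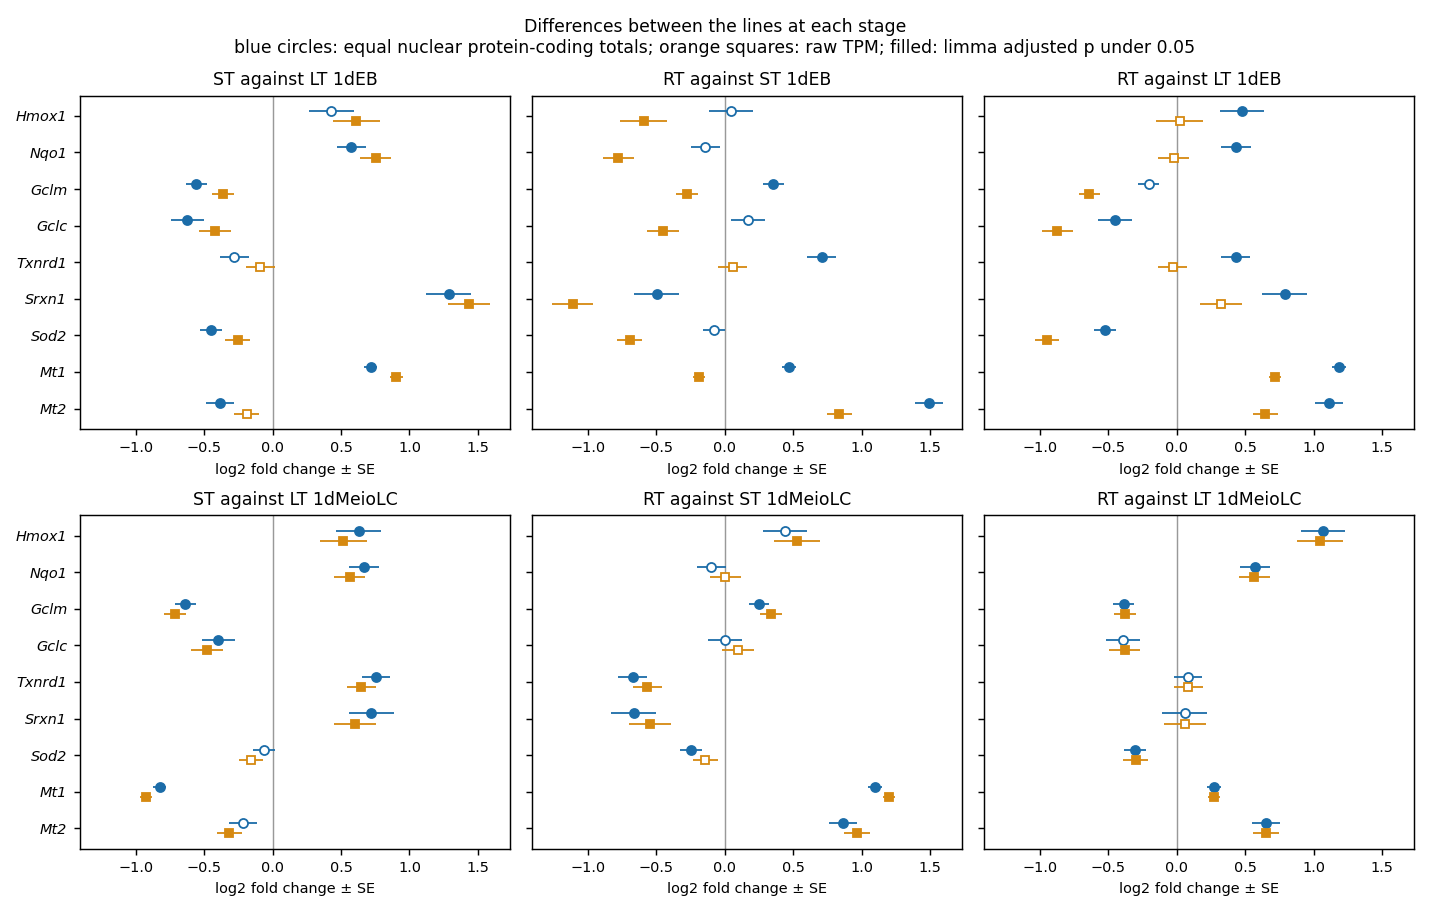
Log2 fold change ± SE of the 9 tested members between the lines, at 1dEB (top row) and 1dMeioLC (bottom row). Blue circles are scaled TPM, orange squares raw TPM, and filled symbols passed a limma adjusted p of 0.05. In RT against ST 1dEB most orange squares lie to the left of 0 while 4 blue circles passed to the right of it.

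RT against ST 1dEB asks what restoring Terc was accompanied by at that day, and here the answer depends on the scale. On scaled TPM 4 members were called higher in RT and 1 lower, against 18.6% and 17% of all genes. On raw TPM 1 was higher and 7 lower, against 5.14% and 44.6%, as most genes took a smaller share of the RT-1dEB libraries. All genes had a median of 0.04 on scaled and -0.38 on raw TPM, and the members 0.17 and -0.45.

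Mt2 was the member whose rise did not depend on the scale. It was at 589 and 654 scaled TPM in ST-1dEB and at 1903 and 1599 in RT-1dEB, the highest levels of any member in any library (1.49 ± 0.10, limma adjusted p = 2.9e-06). On raw TPM the difference was 0.84 (limma adjusted p = 2.7e-05). Srxn1 was lower on both scales, at 58.2 and 62.4 in RT (-0.50 ± 0.16, limma adjusted p = 0.037), and at -1.11 on raw TPM. Its call on scaled TPM was lost without any one of the 4 libraries (limma adjusted p = 0.075 without ST-1dEB replicate 1, 0.16 without ST-1dEB replicate 2, 0.15 without RT-1dEB replicate 1 and 0.090 without RT-1dEB replicate 2).

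The other called members changed with the scale. Txnrd1, at 150 and 152 in RT, was 0.71 ± 0.10 higher (limma adjusted p = 4.9e-04), but 0.06 on raw TPM (limma adjusted p = 0.70). Mt1, at 1292 and 1180.4, was 0.47 ± 0.05 higher (limma adjusted p = 6.7e-05), but -0.19 on raw TPM (limma adjusted p = 0.0050). Gclm, at 56.9 and 58.9, was 0.35 ± 0.08 higher (limma adjusted p = 0.0048), but -0.28 on raw TPM (limma adjusted p = 0.014). Hmox1 (0.05), Nqo1 (-0.14), Gclc (0.17) and Sod2 (-0.08) were not called on scaled TPM and were called lower on raw TPM, at -0.59, -0.78, -0.45 and -0.70. Within libraries, Mt1 was 0.679 and 0.738 times Mt2 in RT-1dEB, close to the LT-1dEB ratio and below the ST-1dEB ratio. Of the 80 wider genes 11 were higher and 31 lower in RT (2 and 64 on raw TPM), with a median of -0.05. Further NRF2 targets had 1 of 8 higher and 5 lower (0 and 6 on raw TPM), the lower ones including Akr1b8 (-1.01) and Ugdh (-1.38). Mt3 was 1.91 higher (1.17 on raw TPM). Fibroblast and stroma markers summed to 236 to 252 scaled TPM in RT-1dEB, against 581 to 603 in ST-1dEB, and their part was not tested.

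Set against LT 1dEB, RT 1dEB had 6 members called higher and 2 lower on scaled TPM, against 23.5% and 14.4% of all genes. On raw TPM the counts were 2 and 3, against 10.7% and 30.9%. RT and ST 1dEB are compared with the same LT libraries, so their differences from LT are not independent. Both metallothioneins were higher on both scales: Mt1 by 1.18 ± 0.05 (limma adjusted p = 1.6e-07, raw TPM 0.72) and Mt2 by 1.11 ± 0.10 (limma adjusted p = 1.8e-05, raw TPM 0.65). Sod2, at 50.3 and 57.2 scaled TPM in RT, was lower on both (-0.52 ± 0.08, limma adjusted p = 5.4e-04, raw TPM -0.95), as was Gclc (-0.45 ± 0.12, limma adjusted p = 0.015, raw TPM -0.87). The Gclc call on scaled TPM was lost without LT-1dEB replicate 1 (limma adjusted p = 0.10) and without RT-1dEB replicate 2 (0.096). Gclm was not called on scaled TPM (-0.20, limma adjusted p = 0.057) and was called lower on raw TPM (-0.64). It was also called without LT-1dEB replicate 2 (limma adjusted p = 0.047).

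Hmox1 (0.48), Nqo1 (0.43), Txnrd1 (0.43) and Srxn1 (0.79) were called higher in RT than in LT on scaled TPM only. Their raw TPM differences were 0.02, -0.02, -0.03 and 0.32, with limma adjusted p from 0.12 (Srxn1) to 0.97 (Hmox1). The Hmox1 call, with RT libraries at 114 and 148, was also lost without LT-1dEB replicate 2 (limma adjusted p = 0.24, difference 0.33) and without RT-1dEB replicate 2 (0.28, difference 0.29). That of Nqo1 was lost without LT-1dEB replicate 1 or without RT-1dEB replicate 2 (limma adjusted p = 0.068 in both), and that of Txnrd1 without LT-1dEB replicate 2 (0.055). Fitting only the groups compared ended the calls of Hmox1 (limma adjusted p = 0.20), Nqo1 (0.060) and Gclc (0.070). Ephx1 (1.82, raw TPM 1.30) and Sqstm1 (1.07, raw TPM 0.60) of the wider lists were higher on both scales, and Tfrc was lower (-1.69, raw TPM -1.98). In all, 32 of the 80 wider genes were higher and 20 lower (12 and 37 on raw TPM), with a median of 0.16 beside 0.10 over all genes. The stroma markers summed to 236 to 252 scaled TPM in RT-1dEB, against 30.1 to 31.8 in LT-1dEB, and their part was not tested.

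In 1dMeioLC, ST against LT again had Nqo1 and Srxn1 higher and the glutamate-cysteine ligase genes lower, and Hmox1 and Txnrd1 were now called higher as well. Counts were 4 members higher and 3 lower of 9, against 20.1% and 13.7% of all genes, with medians of -0.06 for the members and 0.01 for all genes. At this stage the protein-coding shares of the lines were close, and every call held on raw TPM.

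Txnrd1 was at 36.0 and 32.9 scaled TPM in LT-1dMeioLC and at 57.8 and 59.7 in ST-1dMeioLC (0.75 ± 0.10, limma adjusted p = 4.2e-04). Nqo1 was at 38.3 and 32.2 in LT and at 60.5 and 52.5 in ST (0.67 ± 0.11, limma adjusted p = 0.0010). Srxn1 was at 11.1 and 12.0 in LT and at 17.9 and 21.6 in ST (0.72 ± 0.16, limma adjusted p = 0.0069). All 3 had ST libraries above both LT libraries, though the Srxn1 call was lost without ST-1dMeioLC replicate 2 (limma adjusted p = 0.053).

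Hmox1 was at 20.2 and 18.1 in LT and at 27.5 and 32.9 in ST (0.63 ± 0.16, limma adjusted p = 0.013). Its call was lost without LT-1dMeioLC replicate 2 (limma adjusted p = 0.087) and without ST-1dMeioLC replicate 2 (0.090). The 8 macrophage markers summed to 413 to 426 scaled TPM in LT-1dMeioLC and to 132 to 140 in ST-1dMeioLC, none of them at 0. Of these markers only Csf1r was higher in ST (means 7.27 in ST and 5.11 in LT). The part of macrophages was not tested. Fitting only the groups compared ended the calls of Hmox1 (limma adjusted p = 0.073), Nqo1 (0.072), Srxn1 (0.059) and Gclc (0.078).

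Gclm was at 28.4 and 28.3 in LT-1dMeioLC and at 17.4 and 18.3 in ST-1dMeioLC (-0.64 ± 0.08, limma adjusted p = 1.8e-04). Gclc was at 32.1 and 30.4 in LT and at 22.1 and 25.0 in ST (-0.40 ± 0.12, limma adjusted p = 0.030). The Gclc call was lost without LT-1dMeioLC replicate 1 (limma adjusted p = 0.13), LT-1dMeioLC replicate 2 (0.081) or ST-1dMeioLC replicate 1 (0.17). Gclm was thus lower and Txnrd1 higher in ST, and the cause was not tested. Within libraries Srxn1 was 0.389 and 0.423 times Gclm in LT and 1.03 and 1.18 times in ST.

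Mt1 was at 949 and 948 in LT-1dMeioLC and at 551 and 519 in ST-1dMeioLC (-0.83 ± 0.05, limma adjusted p = 3.3e-06), the reverse of its order at 1dEB. Mt2 was at 444 and 462 in LT and at 403 and 376 in ST (-0.22, limma adjusted p = 0.13), and it was called lower on raw TPM (-0.32, limma adjusted p = 0.022). Sod2 was at 127 and 117 in LT and at 123 and 111 in ST, which overlap (-0.06, limma adjusted p = 0.63).

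The wider lists had 36 of 80 genes higher in ST 1dMeioLC and 11 lower (29 and 15 on raw TPM), with a median of 0.25. On raw TPM 3813 of all 21935 tested genes were higher and 3879 lower. Further NRF2 targets had 5 of 8 higher and none lower, again with Ephx1 (2.18) and Akr1b8 (1.23). Ephx1 was at 5.82 and 3.58 scaled TPM in LT-1dMeioLC and at 24.7 and 24.0 in ST-1dMeioLC. NADPH supply had 5 of 6 higher, among them Taldo1 (0.70), Pgd (0.47) and Tkt (0.43) of the pentose phosphate pathway. Glutathione use had 6 of 14 higher and 2 lower, led by the lipid peroxidase Gpx4 (1.24), and superoxide and peroxide removal had 3 of 4 higher. Of the ATF4 targets 4 of 6 were higher, among them Chac1, which degrades glutathione (1.47), and none was lower. Gls2 of the p53-linked list was lower (-0.97), and Sesn2 was higher (1.25). PGC markers summed to 976 to 1024 scaled TPM in LT-1dMeioLC and to 181 to 184 in ST-1dMeioLC. Most of this gap was Dppa3 (means 841 and 50.6). Prdm14 (7.88 and 16.4) and Pou5f1 (2.95 and 10.7) were higher in ST, and the rest of that list were lower there. The part of cell makeup in the differences between LT and ST was not tested.

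Between RT and ST 1dMeioLC, the metallothioneins were higher in RT and Txnrd1, Srxn1 and Sod2 were lower. That is 3 members higher, with Gclm, and 3 lower, against 10.4% and 24.2% of all genes. Raw TPM gave 4 and 2, against 13.1% and 20.2%. Mt1 was at 1113 and 1179 scaled TPM in RT-1dMeioLC, above the 551 and 519 of ST (1.10 ± 0.05, limma adjusted p = 7.0e-07). Mt2 was at 682 and 741 in RT, above the 403 and 376 of ST (0.87 ± 0.10, limma adjusted p = 1.8e-04). Txnrd1 was at 37.7 and 35.2 in RT, near the LT level and below both ST libraries (-0.67 ± 0.10, limma adjusted p = 8.5e-04).

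Srxn1 was at 10.2 and 14.1 in RT-1dMeioLC (-0.66 ± 0.16, limma adjusted p = 0.010), a call lost without ST-1dMeioLC replicate 2 (limma adjusted p = 0.074) or RT-1dMeioLC replicate 1 (0.083). Gclm was at 22.7 and 20.3 (0.25 ± 0.08, limma adjusted p = 0.028), a call lost without ST-1dMeioLC replicate 1 (0.13), ST-1dMeioLC replicate 2 (0.051) or RT-1dMeioLC replicate 1 (0.17). Sod2 was at 98.1 and 99.0 (-0.24 ± 0.08, limma adjusted p = 0.038). It was not called on raw TPM (-0.14, limma adjusted p = 0.27), nor without ST-1dMeioLC replicate 1 (0.22), RT-1dMeioLC replicate 1 (0.12) or RT-1dMeioLC replicate 2 (0.11). Hmox1, at 45.2 and 37.5 in RT, was not called (0.44, limma adjusted p = 0.059), but passed on raw TPM (0.53, limma adjusted p = 0.035). Nqo1 (-0.10) and Gclc (0.00) were not called. In the wider lists 12 of 80 were higher and 37 lower (13 and 25 on raw TPM), with a median of -0.28 beside -0.11 over all genes. Those lower included Ephx1 (-1.48), Akr1b8 (-1.09), Nfe2l2 (-0.56) and 5 of the 6 NADPH supply genes. Fitting only the groups compared ended the calls of Gclm (limma adjusted p = 0.16), Srxn1 (0.16) and Sod2 (0.11). PGC markers summed to 693 to 734 scaled TPM in RT-1dMeioLC against 181 to 184 in ST-1dMeioLC. Most of this gap was Dppa3 (means 550 and 50.6). Prdm1 (2.64 and 5.32), Prdm14 (6.34 and 16.4), Tfap2c (9.91 and 10.1) and Pou5f1 (5.13 and 10.7) were lower in RT. Late germ cell markers summed to 1922 to 2021 against 877 to 879, macrophage markers to 397 to 424 against 132 to 140, and erythroid markers to 1165 to 1177 against 2618 to 2625. The part of cell makeup in the RT and ST differences was not tested.

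RT against LT 1dMeioLC shares its LT libraries with the ST comparison and its RT libraries with the one before. Hmox1 was the member with the largest difference, at 20.2 and 18.1 scaled TPM in LT and 45.2 and 37.5 in RT (1.07 ± 0.16, limma adjusted p = 0.0020). Macrophage markers summed to 413 to 426 in LT and 397 to 424 in RT. Of these, Csf1r, Cd68, C1qb and Fcer1g had higher means in RT, and Adgre1, Lyz2, C1qa and Cx3cr1 had lower means there. The part of macrophages was not tested. Higher calls went to 4 members and lower calls to 2, against 5.75% and 10.7% of all genes. Mt2 (0.65 ± 0.10, limma adjusted p = 0.0026), Nqo1 (0.57 ± 0.11, limma adjusted p = 0.0063) and Mt1 (0.27 ± 0.05, limma adjusted p = 0.0060) were the other higher members. Gclm was lower (-0.39 ± 0.08, limma adjusted p = 0.0077), and so was Sod2 (-0.31 ± 0.08, limma adjusted p = 0.028).

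All 6 calls were lost when only the groups compared were fitted, with limma adjusted p from 0.051 (Mt2) to 0.11 (Nqo1), 0.068 for Hmox1 and 0.081 for Mt1. Some were also lost without 1 library. The Sod2 call was lost without any one of the 4 (limma adjusted p = 0.16 without LT-1dMeioLC replicate 1, 0.059 without LT-1dMeioLC replicate 2, 0.10 without RT-1dMeioLC replicate 1 and 0.097 without RT-1dMeioLC replicate 2), that of Nqo1 without LT-1dMeioLC replicate 2 (0.059), and that of Gclm without RT-1dMeioLC replicate 2 (0.056). Gclc (-0.39, limma adjusted p = 0.054) was called on raw TPM (0.044). Txnrd1 (0.08) and Srxn1 (0.06) did not differ by more than their SE of 0.10 and 0.16. Of the wider genes 15 of 80 were higher and 8 lower (median 0.05), with Chac1 (1.14), Gpx4 (0.84) and the ferritin chain gene Ftl1 (0.65) among the higher ones. None of the 8 further NRF2 targets was called in limma.

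**Figure D3:**
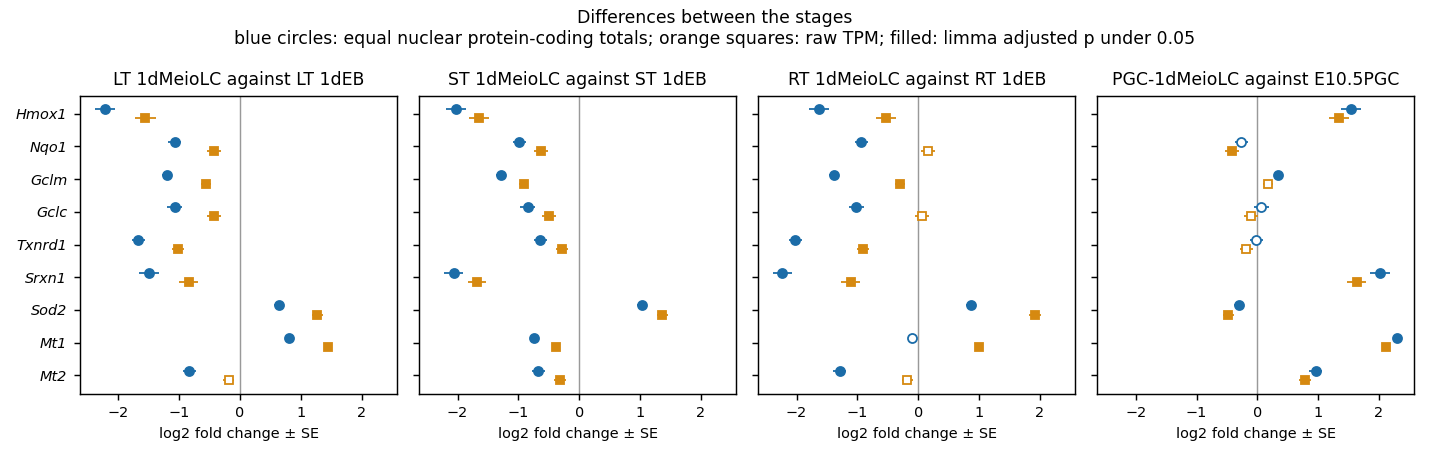
Log2 fold change ± SE of the 9 tested members between the stages: 1dMeioLC against 1dEB in each line, and PGC-1dMeioLC against E10.5PGC. Symbols are as in the plot of the line comparisons. Hmox1, Gclm, Txnrd1 and Srxn1 lie to the left of 0 and Sod2 to the right of 0 in all 3 lines on both scales, and Hmox1 and Srxn1 lie to the right of 0 in the PGC comparison.

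From 1dEB to 1dMeioLC, the NRF2-linked members fell in each line on scaled TPM while Sod2 rose. LT had 2 members higher and 7 lower, against 27.6% and 37.4% of all genes. ST had 1 higher and 8 lower, against 25.5% and 37.5%. RT had 1 higher and 7 lower, against 23.5% and 45.1%, and 2 and 4 on raw TPM, against 43.7% and 22%. The members' medians were -1.08 in LT, -0.85 in ST and -1.29 in RT, beside -0.17, -0.21 and -0.46 over all genes. Stage goes with the co-culture, the medium and the sort, which cannot be told apart here. The cells between the 2 stages, the induced germ cells, are not analysed here.

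Hmox1 fell by 2.23 in LT, 2.03 in ST and 1.63 in RT, with limma adjusted p of 5.7e-07, 1.3e-06 and 5.7e-06. Every 1dMeioLC library (18.1 to 45.2 scaled TPM) lay below every 1dEB library (83.7 to 148). On raw TPM Hmox1 fell by 1.56, 1.65 and 0.53, and it was called in each line. Srxn1 fell by 1.50, 2.07 and 2.23 (limma adjusted p = 1.4e-05, 1.3e-06 and 5.5e-07), and by 0.85, 1.68 and 1.11 on raw TPM. Txnrd1 fell by 1.67 in LT, 0.64 in ST and 2.02 in RT (limma adjusted p = 1.7e-07, 3.0e-04 and 3.7e-08), and by 1.02, 0.28 and 0.91 on raw TPM.

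Gclm fell by 1.21, 1.29 and 1.39 in LT, ST and RT (limma adjusted p = 1.9e-07, 1.4e-07 and 5.8e-08), and by 0.56, 0.91 and 0.30 on raw TPM. Nqo1 fell by 1.08, 0.98 and 0.94 and Gclc by 1.07, 0.85 and 1.02. On raw TPM both fell in LT (0.43 for each) and in ST (0.62 and 0.49), but in RT Nqo1 (0.16) and Gclc (0.06) leaned upward and were not called. Sod2 rose by 0.65, 1.03 and 0.87 (limma adjusted p = 3.9e-05, 1.1e-06 and 3.6e-06), and by 1.27, 1.37 and 1.92 on raw TPM. Its 1dMeioLC libraries (98.1 to 127) all lay above its 1dEB libraries (50.3 to 78.8).

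Metallothioneins did not follow one course. Mt1 rose in LT by 0.80 (limma adjusted p = 1.9e-07), from 547 and 540 to 949 and 948, and fell by 0.74 in ST (limma adjusted p = 4.2e-07), from 887 and 899 to 551 and 519. In RT it was not called on scaled TPM (-0.11, limma adjusted p = 0.081) and was called higher on raw TPM (1.00). It was called lower in RT without RT-1dEB replicate 2 (-0.17, limma adjusted p = 0.015). Mt2 fell by 0.83 in LT, 0.67 in ST and 1.29 in RT on scaled TPM. On raw TPM its fall was called in ST only (0.31), with -0.19 in LT and -0.18 in RT (limma adjusted p = 0.10 in both). Mt1 over Mt2 within a library rose from 0.656 and 0.690 to 2.14 and 2.05 in LT and from 0.679 and 0.738 to 1.63 and 1.59 in RT, and was 1.51 and 1.38 before and 1.37 and 1.38 after in ST.

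**Figure D4:**
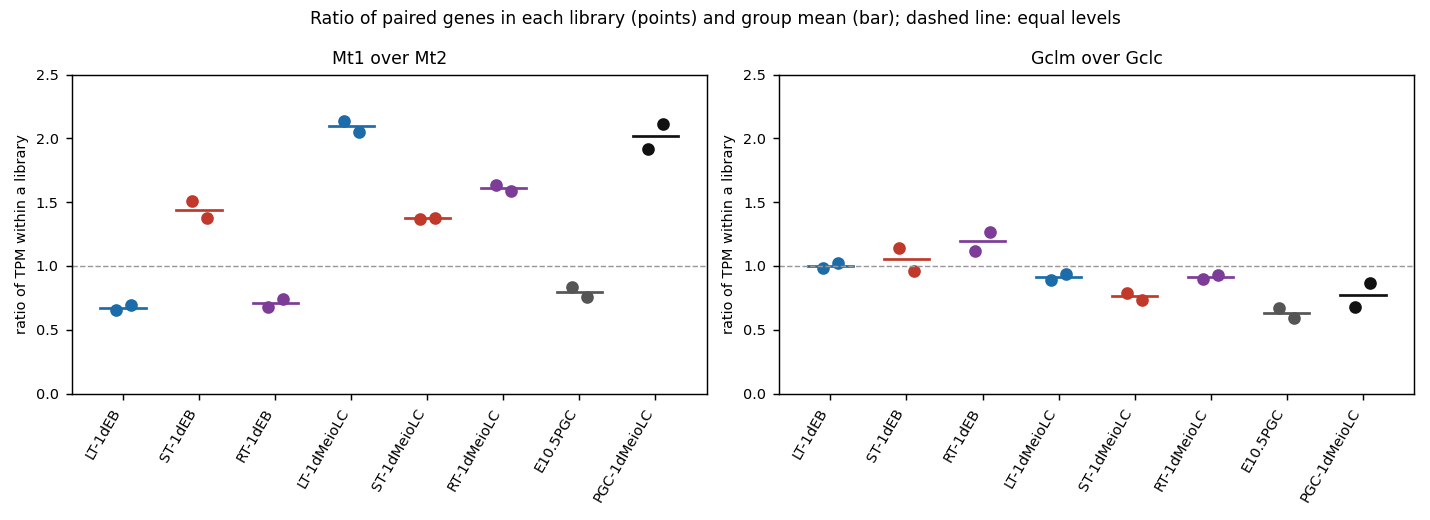
Ratio of Mt1 to Mt2 (left) and of Gclm to Gclc (right) within each library, which no scaling changes. Points are the 2 libraries of a group, bars their mean, and the dashed line marks equal levels. Mt1 over Mt2 is below 1 in LT-1dEB, RT-1dEB and E10.5PGC and above 1 in the other groups.

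The 2 subunits of glutamate-cysteine ligase kept closer company, with Gclm between 0.589 and 1.27 times Gclc over the 16 libraries. Among the wider genes 30, 26 and 27 of 80 rose from 1dEB to 1dMeioLC in LT, ST and RT, and 38, 44 and 44 fell (40, 34 and 47 rose and 28, 34 and 18 fell on raw TPM). Of all tested genes 27.6%, 25.5% and 23.5% rose and 37.4%, 37.5% and 45.1% fell on scaled TPM. On raw TPM 8871, 7311 and 9579 of all 21935 tested genes rose, and 5269, 6493 and 4828 fell. Abcc4, an exporter and NRF2 target, fell in each line (-3.02, -2.29 and -3.14), as did the small MAF gene Mafg (-3.01, -3.45 and -3.59). Mgst1, a membrane glutathione transferase, rose in each (5.92, 3.70 and 5.22), and so did Idh1 (2.86, 2.79 and 2.09). In these 6 libraries of 1dMeioLC the erythroid markers summed to 1165 to 2625 scaled TPM, against 5.23 to 8.52 in 1dEB, and the gonadal somatic markers to 162 to 263, against 38.6 to 74.3. Macrophage markers summed to 132 to 426, against 48.1 to 83.4, with Adgre1, Lyz2, C1qa, C1qb and Cx3cr1 at 0 in LT-1dEB. Csf1r and Cd68 made up most of the 1dEB sums. Csf1r went the other way, with means of 21.3, 21.9 and 24.2 in LT, ST and RT 1dEB and 5.11, 7.27 and 9.07 in 1dMeioLC. Cd68 was also lower in ST 1dMeioLC (24.5 against 26.7). The part of such cells in the stage differences was not tested.

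A test of whether the lines differed in this step found 3 of 9 members for ST minus LT, against 37.7% of all genes in either direction (on raw TPM 4, against 38.6%). Mt1 had the largest difference, -1.54 ± 0.07 (limma adjusted p = 2.4e-07), followed by Txnrd1, 1.03 ± 0.15 (3.7e-04), and Sod2, 0.39 ± 0.11 (0.021). The first 2 were also called on raw TPM (-1.83 and 0.74). For RT minus ST, 3 members passed as well, against 34.5% of all genes (7 on raw TPM, against 42.2%). These were Txnrd1, -1.38 ± 0.15 (limma adjusted p = 9.0e-05), Mt1, 0.63 ± 0.07 (1.4e-04), and Mt2, -0.62 ± 0.14 (0.0079). Txnrd1 and Mt1 kept their direction on raw TPM (-0.62 and 1.38), and Mt2 did not (0.13, limma adjusted p = 0.46).

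The comparison of PGC-1dMeioLC with E10.5PGC sets GFP-negative cells after the gonadal co-culture against E10.5 cells sorted by CD61 and SSEA1. The co-culture, the medium, the sort and a change within germ cells cannot be told apart here. Mt1, Srxn1, Hmox1 and Mt2 were higher in PGC-1dMeioLC, and Sod2 was lower. Higher calls went to 5 members and a lower call to 1, against 38.9% and 15% of all genes (4 and 2 on raw TPM, against 34.7% and 18.9%). Medians were 0.34 for the members and 0.28 for all genes. Mt1 was at 182 and 187 scaled TPM in E10.5PGC and at 933 and 885 in PGC-1dMeioLC (2.29 ± 0.05, limma adjusted p = 2.6e-10). Mt2 went from 218 and 247 to 486 and 419 (0.96 ± 0.10, limma adjusted p = 1.8e-05). Srxn1 was nearly absent before, at 1.16 and 1.91, and at 9.16 and 9.14 after (2.02 ± 0.16, limma adjusted p = 2.2e-06). In Hmox1 the libraries went from 19.8 and 15.8 to 52.5 and 54.1 (1.54 ± 0.16, limma adjusted p = 1.5e-05).

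Gclm went from 28.3 and 25.5 to 33.7 and 35.0 (0.34 ± 0.08, limma adjusted p = 0.0031), a call lost on raw TPM (0.17, limma adjusted p = 0.095). Sod2 was lower after culture, at 117 and 130 against 158 and 149 (-0.31 ± 0.08, limma adjusted p = 0.0074), a call lost without E10.5PGC replicate 1 (limma adjusted p = 0.057) and without PGC-1dMeioLC replicate 1 (0.067), or when only the groups compared were fitted (0.058). Nqo1, at 21.0 and 18.0 after 23.9 and 23.2, was called lower on raw TPM only (-0.42, limma adjusted p = 0.0096; scaled -0.27, 0.058), and on scaled TPM without PGC-1dMeioLC replicate 1 (0.032). Gclc (0.07) and Txnrd1 (-0.02) were not called, though Txnrd1 passed as lower without PGC-1dMeioLC replicate 2 (-0.21, limma adjusted p = 0.049). Slc7a11, fitted without the filter on low values, was at 0.157 and 0.169 scaled TPM before and 1.46 and 1.37 after (1.05 ± 0.23, limma adjusted p = 0.0045). In that fit Slc7a11 was also called lower from 1dEB to 1dMeioLC in ST (-0.77, limma adjusted p = 0.021) and in RT (-0.67, 0.032). It was not called in LT (-0.04) or in the other comparisons. Its level was near the bottom of the measured range throughout, and the read depth is unknown.

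Of the 10 NRF2 and BACH1 regulators 5 were called higher after culture and 2 lower (3 and 3 on raw TPM), with a median of 0.28 beside 0.28 over all genes. Bach1 was at 2.40 and 2.56 scaled TPM in E10.5PGC and at 13.9 and 16.7 in PGC-1dMeioLC (2.22 ± 0.16, limma adjusted p = 7.4e-07). Nfe2l2 went from 18.6 and 18.5 to 58.1 and 60.7 (1.63 ± 0.06, limma adjusted p = 7.0e-09), and Keap1 by 1.00 (3.0e-04). All 9 heme and iron genes were higher (8 on raw TPM), with a median of 0.97, led by Slc48a1 (2.80) and the biliverdin reductase Blvrb (2.42). Of the 80 wider genes 48 were higher and 18 lower (42 and 20 on raw TPM), with a median of 0.44. Macrophage markers summed to 37.0 to 47.6 scaled TPM in E10.5PGC and to 1083 to 1103 in PGC-1dMeioLC, stroma markers to 12.42 to 12.54 and 613 to 649, and none of the macrophage markers was at 0. These moved with Hmox1, Srxn1 and the heme and iron genes, and their part was not tested.

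**Figure D5:**
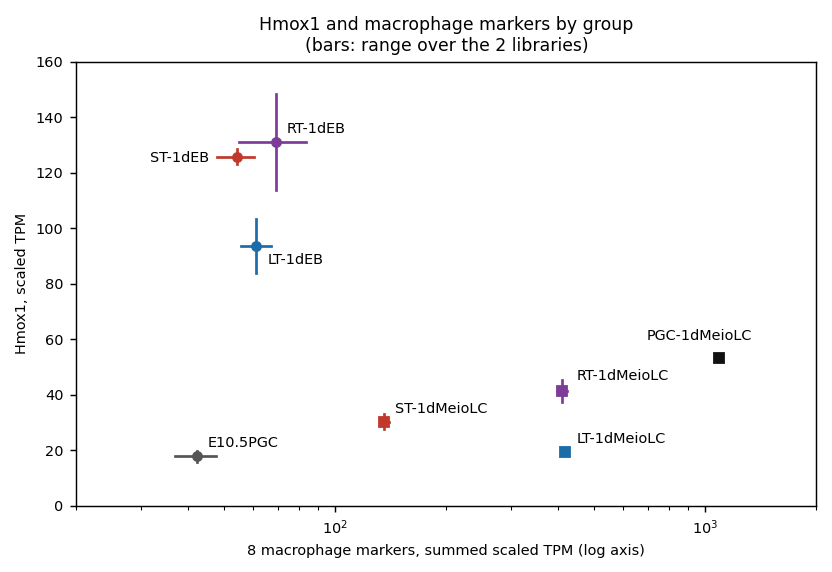
Hmox1 in scaled TPM against the summed scaled TPM of 8 macrophage markers (log axis) for the 8 groups. Crosses span the 2 libraries of a group. PGC-1dMeioLC has the highest marker sum (1083 to 1103), while the highest Hmox1 levels are in 1dEB groups, whose marker sums are 48.1 to 83.4. Csf1r and Cd68 make up most of the 1dEB sums.

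Last, LT 1dMeioLC were set against PGC-1dMeioLC, cells of the same culture step from a stem cell and an embryonic source. Levels of most members were near each other, with 1 called higher in LT and 3 lower, against 8.34% and 13.8% of all genes (2 and 1 on raw TPM, against 13.4% and 8.25%). Nqo1 was at 38.3 and 32.2 scaled TPM in LT and at 21.0 and 18.0 in PGC-1dMeioLC (0.82 ± 0.11, limma adjusted p = 6.2e-04). Hmox1 was at 20.2 and 18.1 against 52.5 and 54.1 (-1.43 ± 0.16, limma adjusted p = 2.6e-04), where the macrophage markers summed to 413 to 426 and 1083 to 1103, and their part was not tested. Both were called on either scale. Fitting only the groups compared ended the calls of Nqo1 (limma adjusted p = 0.075), Gclc (0.12) and Gclm (0.053).

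Gclc (-0.51, limma adjusted p = 0.015) and Gclm (-0.27, limma adjusted p = 0.032) were lower on scaled TPM only (raw TPM 0.056 and 0.38). The Gclm call was lost without any one of the 4 libraries (limma adjusted p = 0.10 without LT-1dMeioLC replicate 1, 0.13 without LT-1dMeioLC replicate 2, 0.078 without PGC-1dMeioLC replicate 1 and 0.14 without PGC-1dMeioLC replicate 2). That of Gclc was lost without LT-1dMeioLC replicate 2 (0.095) and without PGC-1dMeioLC replicate 1 (0.11). Mt1 differed by 0.06 (limma adjusted p = 0.44) and was called higher in LT on raw TPM (0.22, limma adjusted p = 0.0060). Mt2 (0.01), Txnrd1 (0.07), Srxn1 (0.30) and Sod2 (-0.02) were not called. Of the wider genes 20 of 80 were higher and 10 lower (26 and 2 on raw TPM), with a median of 0.01.

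Over the 8 group means, the members were not each other's nearest genes. Likeness was measured as the root mean square difference of log2 levels after each gene's mean was removed, among the 10490 genes above, and a smaller value means a closer course. Sod2 was nearest to the phosphatase gene Ptpn2 (0.073), Gclc to Ccdc191 (0.093), Pnn (0.11) and Wdr77 (0.13), Gclm to Slc5a10 (0.12), Xpo7 (0.13) and Prkdc (0.13), and Txnrd1 to Stxbp2 (0.14). Nqo1 (Atp6v0c, 0.27), Hmox1 (Borcs6, 0.24), Srxn1 (Marveld1, 0.25), Mt1 (Gm10801, 0.29) and Mt2 (Des, 0.32) had no gene as close. Levels were not divided by a gene's range, so wide-ranging genes tend to larger values. These members had the widest log2 ranges of group means, 2.47 (Nqo1) to 5.11 (Srxn1), against 1.47 (Gclc) to 2.17 (Txnrd1) for those named before them. Within the group, Gclm and Gclc were nearest to each other (0.27), then Nqo1 and Txnrd1 (0.42), while the nearest member to Sod2 was 0.83 away and Mt1 was 0.62 from Mt2. For the barely detected Slc7a11 this measure mainly reflects its small range on the log2 scale.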

How the data were processed

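RNA from 28 samples in 14 groups was sequenced from Illumina libraries of total RNA, per the labels' protocols. The authors deposited 1 table of TPM per gene symbol and sample, which already corrects for transcript length and total. Per the submitters' processing notes, the build was mm10 and the tools were HISAT2, Bowtie2, RSEM, DESeq2 and R 3.4.2, and no source used here states their roles. No read counts were used, so depth is unknown and no counting interval is given. Of the table's columns 16 were used (8 groups of 2). A further 12 were not used, because 6 epiblast-like cell names each stand over more than one column. The samples of PGC-like cells are not analysed here.

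TPM were rescaled in each library so that 21777 nuclear protein-coding genes (GENCODE M21) add up to 1000000. A gene was tested if 2 or more libraries had 1 TPM or more of it. The log2 of scaled TPM + 1 was fitted with limma 3.58.1 (R 4.3.3, trended variance), with 1 mean for each of 8 groups, 8 residual and 2.17 prior degrees of freedom. P-values were adjusted by Benjamini-Hochberg over 21935 genes. The steps were tested on simulated data.

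Members and lists were chosen with earlier results of these data known. The genes named are the 10 members, up to 3 called genes with the largest change per list and comparison, the 3 genes most like each member, and Terc. Genes given beyond these (Nfe2l2, Ephx1, Mt3 and other list genes across comparisons) were chosen after their values were seen. Alternatives were raw TPM, quantile normalization, a pseudocount of 0.1, no filter, a filter at 5 TPM, only the groups compared, a replicate block and leaving out each library. Replicate numbers did not pair samples: same-numbered deviations correlated between -0.03 and 0.04 over 28 pairs of groups, none over 0.1.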

Additional observations from a re-analysis of the deposited data

Results flagged for a closer look

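For 6 results the step from 1dEB to 1dMeioLC differed between lines in a limma test of the difference itself. Between ST and LT these were Mt1 (-1.54), which rose in LT and fell in ST, Txnrd1 (1.03), which fell less in ST than in LT, and Sod2 (0.39), which rose more in ST. The Sod2 difference was 0.10 on raw TPM (limma adjusted p = 0.60), and its call was lost without LT-1dEB replicate 1 (0.060), ST-1dEB replicate 1 (0.066), LT-1dMeioLC replicate 2 (0.080) or ST-1dMeioLC replicate 1 (0.076). Between RT and ST they were Txnrd1 (-1.38), which fell more in RT than in ST, Mt1 (0.63) and Mt2 (-0.62). The Mt2 difference was 0.13 on raw TPM and was not called there. Each group has 2 libraries, and the cause of these differences was not tested.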

How the results depend on the processing

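Of 117 limma results for single members, quantile normalization kept the call, and the direction where either setting called it, of 104, a pseudocount of 0.1 of 116, no filter of 115, a filter at 5 TPM of 112 and raw TPM of 80. Leaving out 1 library kept 490 of 540. The sign of further uncalled results changed for 7 under quantile normalization, 8 on raw TPM and 21 without 1 library. Among results called on at least one scale, raw TPM turned 13 directions: in RT against ST 1dEB Hmox1 (-0.59), Gclm (-0.28), Gclc (-0.45) and Mt1 (-0.19), in RT against LT 1dEB Nqo1 (-0.0227) and Txnrd1 (-0.0292), in RT 1dMeioLC against 1dEB Nqo1 (0.16), Gclc (0.0600) and Mt1 (1.00), and in RT minus ST Gclm (0.61), Gclc (0.55), Sod2 (0.55) and Mt2 (0.13). The number of members called became 8 in RT against ST 1dEB, 5 in RT against LT 1dEB and 7 in RT minus ST. Fitting only the groups compared leaves fewer residual degrees of freedom: members called were then 5 in RT against LT 1dEB, 3 in ST against LT 1dMeioLC, 3 in RT against ST 1dMeioLC, 0 in RT against LT 1dMeioLC (7 at an unadjusted limma p under 0.05, and 6 in the fit of all groups) and 1 in LT 1dMeioLC against PGC-1dMeioLC.

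Without 1 library, members called ranged from 6 to 7 in ST, 4 to 4 in RT against ST and 5 to 8 in RT against LT at 1dEB, and from 5 to 6, 3 to 5 and 4 to 5 in the same comparisons at 1dMeioLC. Stage comparisons gave 9 to 9 in LT, 9 to 9 in ST and 8 to 9 in RT, PGC-1dMeioLC against E10.5PGC 5 to 7, and LT against PGC-1dMeioLC 2 to 3. ST minus LT gave 2 to 3 and RT minus ST 3 to 3. The replicate block changed 2 of 117 calls: Sod2 in RT against ST 1dMeioLC lost its call (limma adjusted p = 0.051) and Srxn1 in ST minus LT gained one (0.034), and the replicate numbers share only a number. TPM keeps no read depth, so the lowest values, such as those of Slc7a11, cannot be given a counting error.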
